A study of Rattus norvegicus with 47 samples.

Results

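Glucocorticoid-induced genes were followed in the striatum and cerebellum of rats that had inhaled the polychlorinated biphenyl PCB52. The set held 9 of the 15319 genes counted: Tsc22d3, Fkbp5, Sgk1, Klf9, Ddit4, Pdk4, Angptl4, Zbtb16 and Cdkn1a. They were taken by symbol from a list of genes that corticosterone raises. They had been proposed with results of these libraries known, namely that many stood lower in PCB52 than in sham striatum of females and higher in sham females than in sham males in both regions. Those contrasts, and the differences of effects that contain them, are therefore given as descriptions, and nothing is read from the counts of calls that stand beside them. Other exposure and sex contrasts that share a group with them are not independent of the choice.

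Corticosterone, the main glucocorticoid of rats, binds the glucocorticoid receptor and the higher-affinity mineralocorticoid receptor, which then enter the nucleus and act on transcription. The genes they raise include proteins that restrain the receptor itself, kinases, inhibitors of growth signalling and enzymes of fuel use. Because the hormone reaches all brain regions through the blood, transcripts of this kind are commonly read as a record of recent hormone exposure, although many other signals also act on them.

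The animals were Sprague-Dawley rats bought from a breeder, assigned at random at 39 days of age (males) or 42 days (females) to sham or PCB52 exposure. Exposure lasted 4 h a day for 28 days by a nose-only system in which air passed over glass beads coated with PCB52. Striatum was read in 4 sham males, 6 PCB52 males, 6 sham females and 6 PCB52 females, and cerebellum in 5 sham males, 5 PCB52 males, 6 sham females and 6 PCB52 females. No genetic modification is given in the labels, the RNA came from tissue punches that mix all cell types, and no hormone measurement was used here. In such bulk samples, fewer cells of a type and less RNA per cell cannot be told apart.

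Library totals ran from 5684508 to 8914523 counts in striatum and from 6524400 to 15865054 in cerebellum. The region labels fitted the marker lists: 8 striatal projection neuron genes summed to 4998 to 12879 CPM (read counts scaled to library size) in striatum and 346 to 664 in cerebellum, and 7 granule cell genes to 24.0 to 392 and 4471 to 6316. In 5 sham libraries (cerebellum females 8 and 10 and males 9 and 11, striatum male 3) Xist and Eif2s3y, transcripts of opposite sexes, were both above 3 CPM. In cerebellum they were 159 and 32.9 CPM in female 8 and 544 and 4.2 in female 10. They were 265 and 9.9 in male 9, 314 and 31.7 in male 11, and 135 and 33.4 in striatum male 3. Cerebellum of sham female 12 had 264 and 0, and of sham male 7 had 0 and 73.9. The share of other-sex material was not estimated, and the sex and animal labels were kept as given. Striatum of PCB52 female 20 stood apart by 7 choroid plexus genes that summed to 11446 CPM, against at most 112 in the other striatal libraries. In cerebellum of sham male 1 the same genes summed to 2367 CPM, against at most 60.7 in the other cerebellar libraries. In striatum 6 cortical excitatory neuron genes summed to 9.40 to 460 CPM, highest in PCB52 female 24. The same genes summed to 1074 to 1819 CPM in cerebellum, so they do not mark cortex alone. The striatal granule cell sum was highest in PCB52 female 22. Ribosomal protein genes were highest in cerebellum of PCB52 males 15 and 23 and females 16 and 20.

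All 9 genes had counts in every library and were tested in both regions. Counts ran from 203 to 592 for Fkbp5 in cerebellum, but only from 5 to 70 for Zbtb16, 12 to 75 for Cdkn1a and 12 to 81 for Pdk4 there, so that the last 3 are the least precisely measured. Values below are CPM on scaled library sizes. They compare libraries for the same gene and not different genes, since they are not divided by transcript length.

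Upstream sequence was examined because the genes are known for a shared regulator. RefSeq windows (build GRCr8) of 250 bases before a transcription start were at hand for 12 starts of 8 of the genes. The glucocorticoid response palindrome, spelled GNACA and TGTNC with 3 free bases between them and searched on both strands, was in 0 of the 12 windows and in 0.37% of 33465 windows of all genes. The shorter motif AGAACA, a core of that palindrome, was also in 0 of 12, against 17.53% of all windows. The TATA motif TATAAA was in 4 of 12 windows, of Tsc22d3, Sgk1 (2 starts) and Angptl4, against 12.93% of all windows. No match says only that these letters are not in these windows. Shown as examples with TATAAA are a start of Tsc22d3 (chrX:109010035-109010284, minus strand) and a start of Sgk1 (chr1:24804832-24805081, minus strand). Each is written 5′ to 3′ on the gene's strand, with TATAAA in capitals 44 and 33 bases before the start.
Tsc22d3 start 3: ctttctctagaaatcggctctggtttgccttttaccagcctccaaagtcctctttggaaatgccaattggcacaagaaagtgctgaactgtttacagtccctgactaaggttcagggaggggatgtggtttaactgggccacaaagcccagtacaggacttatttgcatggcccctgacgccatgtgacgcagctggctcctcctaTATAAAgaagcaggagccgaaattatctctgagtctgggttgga
Sgk1 start 3: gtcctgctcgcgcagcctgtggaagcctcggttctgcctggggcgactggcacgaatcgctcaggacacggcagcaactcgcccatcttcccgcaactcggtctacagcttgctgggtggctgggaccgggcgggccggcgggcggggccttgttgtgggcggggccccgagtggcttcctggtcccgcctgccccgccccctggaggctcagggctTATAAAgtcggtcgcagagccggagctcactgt

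Striatum and cerebellum differed in most of these genes, and not in the same direction. Striatum held more Fkbp5, Sgk1, Angptl4, Cdkn1a and Zbtb16 transcript, and cerebellum held more Tsc22d3. In sham animals 6 of 9 genes were called by edgeR's quasi-likelihood test (adjusted p under 0.05), 5 higher and 1 lower in striatum. Regions this different are a high background: 69.8% of the 12446 genes tested were called, 34.3% higher and 35.5% lower in striatum. In PCB52 animals 8 of 9 were called, 6 higher and 2 lower, against 76.9% of all genes (36.5% higher, 40.4% lower). The median log2 difference of the 9 genes was 0.79 in sham and 0.81 in PCB52 animals, beside -0.03 and -0.04 over all genes tested.

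Fkbp5 encodes a co-chaperone that lowers the hormone affinity of the glucocorticoid receptor. Its lowest, median and highest values were 90.1, 123 and 166 CPM over 22 striatal libraries and 28.3, 36.1 and 48.5 over 22 cerebellar libraries. Every striatal library was above every cerebellar library, which held for Fkbp5 alone among the 9 and for 11.4% of all genes in that direction (10% in the other). The log2 difference was 1.70 ± 0.08 (SE) in sham animals (edgeR adjusted p = 4.21e-21) and 1.72 ± 0.08 in PCB52 animals (edgeR adjusted p = 7.73e-22).

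Sgk1 encodes a kinase that regulates ion channels and transporters and is also raised in oligodendrocytes by corticosterone. It ranged from 69.7 to 244 CPM in striatum (median 134) and from 38.6 to 151 in cerebellum (median 61.0), so the regions overlapped. The log2 difference was 1.11 ± 0.18 in sham rats and 1.12 ± 0.18 in exposed rats (edgeR adjusted p = 1.37e-06 and 4.33e-07). The 10 oligodendrocyte markers summed to 9329 to 32973 CPM in striatum and 5033 to 14812 in cerebellum, and their part in the result was not tested.

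Tsc22d3, which encodes the glucocorticoid-induced leucine zipper protein, had the opposite order. Its lowest, median and highest values were 80.0, 110 and 171 CPM in striatum and 113, 182 and 270 in cerebellum. It was lower in striatum by -0.52 ± 0.12 in sham animals (edgeR adjusted p = 2.95e-04) and by -0.85 ± 0.12 in PCB52 animals (edgeR adjusted p = 2.17e-08). Fkbp5 and Tsc22d3, both widely used as readouts of the receptor, thus ordered the regions in opposite ways.

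Angptl4, which encodes a secreted inhibitor of lipoprotein lipase, ranged from 11.7 to 23.1 CPM in striatum and from 6.07 to 13.4 in cerebellum. Its log2 difference was 1.02 ± 0.11 in sham rats and 0.63 ± 0.11 in exposed rats (edgeR adjusted p = 1.29e-10 and 1.45e-06). Pdk4, whose product switches off pyruvate dehydrogenase, ranged from 2.94 to 15.1 and from 1.81 to 10.7 CPM. Its difference was 0.45 ± 0.26 in sham rats (edgeR adjusted p = 0.121) and 0.81 ± 0.25 in exposed rats (edgeR adjusted p = 0.00368).

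Cdkn1a, which encodes the cell cycle inhibitor p21, had log2 differences of 0.94 ± 0.31 in sham rats and 1.39 ± 0.30 in exposed rats (edgeR adjusted p = 0.00624 and 7.18e-05). For Zbtb16, a zinc finger repressor gene, they were 0.79 ± 0.35 and 1.85 ± 0.34 (edgeR adjusted p = 0.0415 and 6.46e-06). Without the 5 libraries that held transcripts of both sexes, the sham calls of Cdkn1a and Zbtb16 were lost, with log2 differences of 0.82 and 0.66 (edgeR adjusted p = 0.0645 and 0.171). Cerebellum of sham male 1, with choroid plexus transcripts, had the highest Cdkn1a and Zbtb16 of the sham males there (8.24 and 4.77 CPM), and without it the sham differences were 1.12 and 0.93. The sham call of Zbtb16 was kept in 32 of 44 fits that left out 1 library each.

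Klf9, a transcription factor gene, and Ddit4, whose product restrains mTOR signalling, lay closest between the regions. Klf9 had a median of 190 CPM in striatum and 179 in cerebellum, and log2 differences of 0.12 ± 0.11 in sham rats and 0.20 ± 0.11 in exposed rats (edgeR adjusted p = 0.341 and 0.0816). Ddit4 differed by -0.05 ± 0.15 in sham animals (edgeR adjusted p = 0.765) and by -0.44 ± 0.14 in PCB52 animals (edgeR adjusted p = 0.00600). Without the 4 cerebellar libraries of high ribosomal protein transcripts and striatum sham female 12, the Ddit4 value in PCB52 animals was -0.19 (edgeR adjusted p = 0.231).

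**Figure D1:**
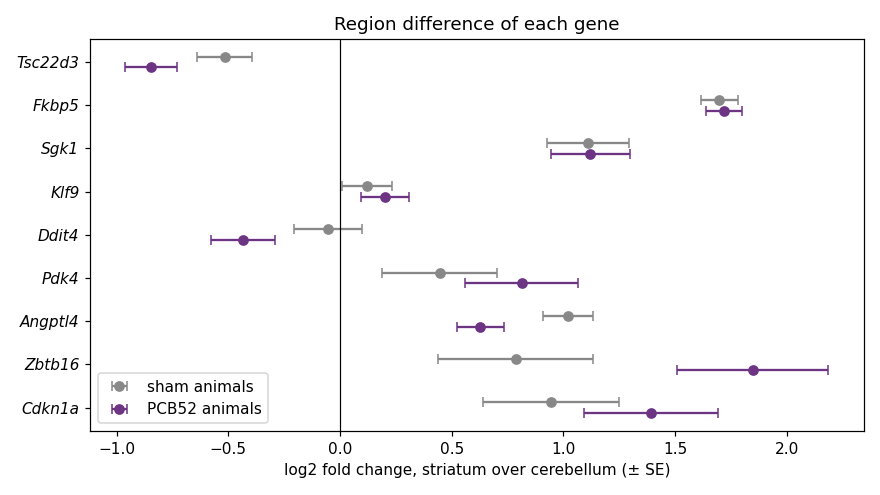
Log2 fold change of striatum over cerebellum for each gene, with its standard error, in sham (grey) and PCB52 (purple) animals. Fkbp5 sits at 1.70 and 1.72, Tsc22d3 lies below 0 in both, and Klf9 lies closest to 0 in PCB52 animals.

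In 21 animals both regions were read, so that the region difference could be taken within an animal. They include the 5 animals with a library that held transcripts of both sexes. Fkbp5, Sgk1 and Angptl4 were higher in striatum in 21 of 21 animals, Cdkn1a in 20, Zbtb16 in 18, Pdk4 in 17 and Klf9 in 13. Tsc22d3 was higher in striatum in 0 of 21 and Ddit4 in 5. The share of all genes with the same direction in every animal was not computed. Nothing particular to these genes is therefore read from the counts. The within-animal log2 difference of Fkbp5 stayed between 1.29 and 2.01, while that of Zbtb16 ran from -1.09 to 3.82.

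The receptors and their chaperones, a list of 18 genes of which 17 were tested, gave 4 higher and 6 lower calls in sham and 7 and 7 in PCB52 animals, beside 69.8% and 76.9% of all genes called. Nr3c1, the glucocorticoid receptor gene, did not pass the test between regions of sham animals (log2 difference -0.03 ± 0.16, edgeR adjusted p = 0.854). In PCB52 animals it was higher in striatum by 0.37 ± 0.15 (edgeR adjusted p = 0.0219). Nr3c2, the mineralocorticoid receptor gene, was higher in striatum by 0.39 ± 0.12 in sham animals (edgeR adjusted p = 0.00262).

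Fkbp4, the co-chaperone that opposes Fkbp5 on the receptor, was lower in striatum by -1.47 ± 0.08 in sham animals (edgeR adjusted p = 8.15e-19). It stood at 163 ± 22.3 CPM in striatum and 430 ± 58.1 in cerebellum of sham females (SD, n = 6 each). Stip1 and Hsp90aa1, which load and form the chaperone complex, were lower by -0.72 ± 0.06 and -0.50 ± 0.06. Hsd11b1, which regenerates active corticosterone inside cells, was lower in striatum by -1.20 ± 0.15 (edgeR adjusted p = 3.00e-09), with 43.4 ± 8.39 CPM against 101 ± 15.95 in sham females (SD, n = 6 each). Hsd11b2, which inactivates the hormone, had at most 4 counts in any library and was not tested.

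Of 28 further genes known as glucocorticoid targets, 26 were in the tables and tested between regions, with 10 higher and 7 lower calls in sham and 11 and 8 in PCB52 animals, beside 69.8% and 76.9% of all genes called. Rhob, a small GTPase gene, Fam107a, which encodes an actin-binding protein, and Arl4d, another GTPase gene, were higher in sham striatum by 1.31 ± 0.07, 0.93 ± 0.07 and 1.84 ± 0.14. Bcl6, a transcriptional repressor gene, was lower by -2.10 ± 0.17.

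The level of the hormone-induced genes varied between animals of the same group, and for some of them the animals that stood high in striatum also stood high in cerebellum, although no gene passed the adjusted threshold. Sgk1 in PCB52 animals is an example. In striatum of PCB52 males it was 241 CPM in animal 21 and 94.0 to 125 in the other 5, and in their cerebellum animal 21 was again highest, at 80.3 CPM against 43.9 to 69.2. In PCB52 females animal 20 was highest in both regions, with 212 CPM in striatum (others 69.7 to 151) and 97.5 in cerebellum (others 38.6 to 57.3). Animal 22 was lowest in both, with 69.7 and 38.6 CPM.

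Over the 21 animals, with group means removed, the striatal and cerebellar deviations of Sgk1 had a Pearson r of 0.71 (permutation p = 0.0018) and a Spearman rho of 0.72 (permutation p = 0.001). For Cdkn1a r was 0.77 (permutation p = 0.00213) and rho 0.65 (permutation p = 0.00332). For Ddit4 r was 0.59 (permutation p = 0.00686) and rho 0.57 (permutation p = 0.00861). Animals were permuted within their group, 2-sided, with 100000 resamples. These were 3 of the 9 genes, and the same relation was computed for all 11446 genes measured in both regions.

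Tsc22d3 (r = 0.47, rho = 0.54) and Fkbp5 (r = 0.46, rho = 0.53) followed, with permutation p-values of 0.0367 and 0.0385 for r and 0.02 and 0.0222 for rho. Angptl4 (r = 0.28, rho = 0.30, permutation p = 0.175 and 0.186), Pdk4 (r = 0.16, rho = 0.02, permutation p = 0.574 and 0.953), Zbtb16 (r = 0.01, rho = -0.07, permutation p = 0.959 and 0.778) and Klf9 (r = -0.22, rho = -0.08, permutation p = 0.316 and 0.755) gave no relation past an unadjusted p of 0.05. After adjustment over all 11446 genes no member was called (adjusted permutation p from 0.896 to 1.00 for r, from 0.715 to 1.00 for rho), and 0% of all genes were. Unadjusted, 5 of 9 members and 4.02% of all genes had p under 0.05 for r (5 of 9 and 3.93% for rho). The median r was 0.46 over the 9 genes and 0.06 over all genes, and Cdkn1a, Sgk1 and Ddit4 lay at the 99.9, 99.8 and 99.3 percentiles of all genes by r.

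Leaving out the 2 animals farthest from the median in striatum gave an r of 0.49 for Sgk1 (without PCB52 male 21 and PCB52 female 20), 0.54 for Cdkn1a, 0.54 for Ddit4, 0.64 for Tsc22d3 and 0.51 for Fkbp5. The permutation p was then 0.0491, 0.0267, 0.0299, 0.00489 and 0.0391. For Pdk4 r went from 0.16 to -0.23. Within the 6 PCB52 females r of Sgk1 was 0.94 and within the 6 sham females 0.30. With the 5 animals that had a library with transcripts of both sexes left out (16 animals), r was 0.75 for Sgk1, 0.84 for Cdkn1a, 0.62 for Ddit4, 0.37 for Tsc22d3 and 0.26 for Fkbp5.

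Counted by gene, sham female 4, PCB52 female 20 and PCB52 male 21 were above their group mean for 9 of 9 genes in striatum and for 7 of 9 in cerebellum. PCB52 female 22 was above it for 0 of 9 and 1 of 9. Other animals did not match between regions: sham male 3 was above it for 7 of 9 in striatum and 2 of 9 in cerebellum. For sham male 9 the counts were 3 and 7, for PCB52 male 19 they were 2 and 6, and for PCB52 female 24 5 and 1. Sham female 12 had the highest mean deviation of the 9 genes in cerebellum (0.38 log2 units) but lay below its group in striatum (-0.18). The choroid plexus genes that set striatum of PCB52 female 20 apart summed to at most 60.7 CPM in cerebellum of PCB52 females. In cerebellum of PCB52 female 20, Cdkn1a was 9.13 CPM against 1.43 to 2.70 in the other 5. That cerebellar library had high ribosomal protein transcripts and the highest cerebellar sum of astrocyte markers, 8939 CPM. Whether any of these bear on its Cdkn1a level was not tested. Sham female 4 also had the highest striatal sum of oligodendrocyte markers, 32973 CPM, whose part in the result was not tested.

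**Figure D2:**
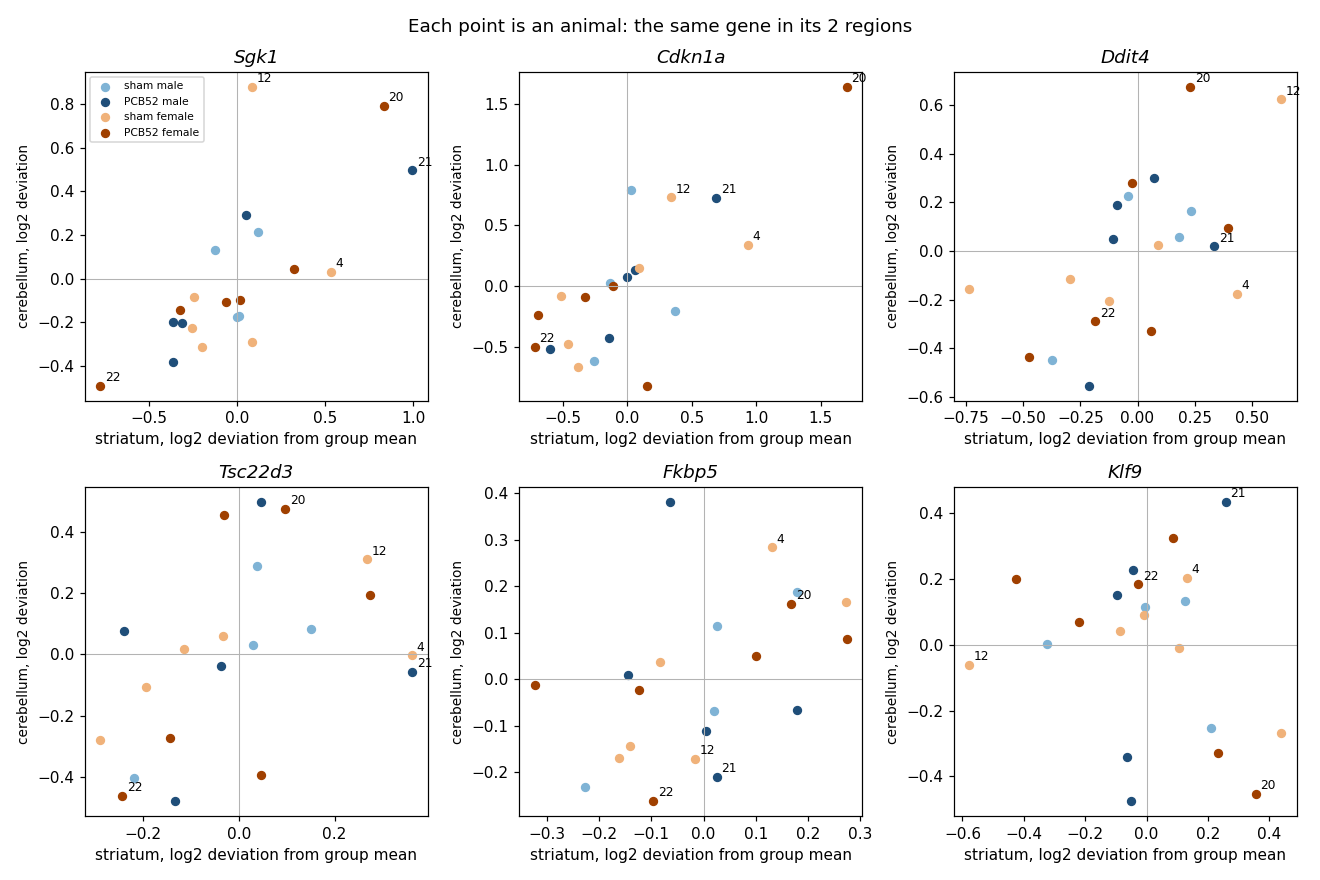
Deviation of each of 21 animals from its group mean in striatum (horizontal) and cerebellum (vertical), in log2 units, for 6 genes, with colour for the group and numbers for animals 4, 12, 20, 21 and 22. Animals 20 and 21 lie at the upper right for Sgk1 (r = 0.71) and Cdkn1a (r = 0.77), while Klf9 has no such order (r = -0.22).

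Within a region, the genes moved together more in striatum than in cerebellum by count, a difference that was not tested. Over 22 striatal libraries, with group means removed, the 36 pairs of genes had a median r of 0.38, and 32 pairs were above 0. In cerebellum the median was 0.18, with 24 of 36 above 0. Libraries share their scaling, so these are descriptions. The striatal genes most like the mean of the 9 were Gpd1, a glycerol phosphate dehydrogenase gene (r = 0.82, 22 libraries), Slc2a1, the glucose transporter gene of brain vessels (0.81), Arrdc2 (0.80), Errfi1 (0.78), a feedback inhibitor of EGF receptor signalling, and Gramd2b (0.78). In cerebellum they were Fzd9 (0.80), a Wnt receptor gene, Mknk2 (0.79), a kinase gene, Gpd1 (0.77), Mt2A (0.73), a metallothionein gene, and Fibin (0.73). There Klf9 and Zbtb16 did not follow the mean of the other members (r = -0.23 and -0.02).

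In cerebellum part of the spread went with the ribosomal protein genes, a set of 74 chosen by symbol after the data were seen. Their mean was 9.11 to 9.74 log2 CPM in PCB52 males 15 and 23 and PCB52 females 16 and 20, and 7.48 to 8.58 in the other 18 cerebellar libraries. Klf9 was 103 to 133 CPM in those 4 libraries and 153 to 210 in the other 18, with no overlap. The share of all genes that separate in this way was not computed, so nothing particular to Klf9 is read from it. Tsc22d3 was 205 to 270 against 113 to 241, and Ddit4 208 to 272 against 115 to 281. All 4 libraries are PCB52 libraries, so this axis touches the exposure comparison in cerebellum. With it regressed out in both regions, r between regions was 0.65 for Sgk1, 0.77 for Cdkn1a, 0.59 for Tsc22d3, 0.42 for Ddit4 and 0.41 for Fkbp5.

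**Figure D3:**
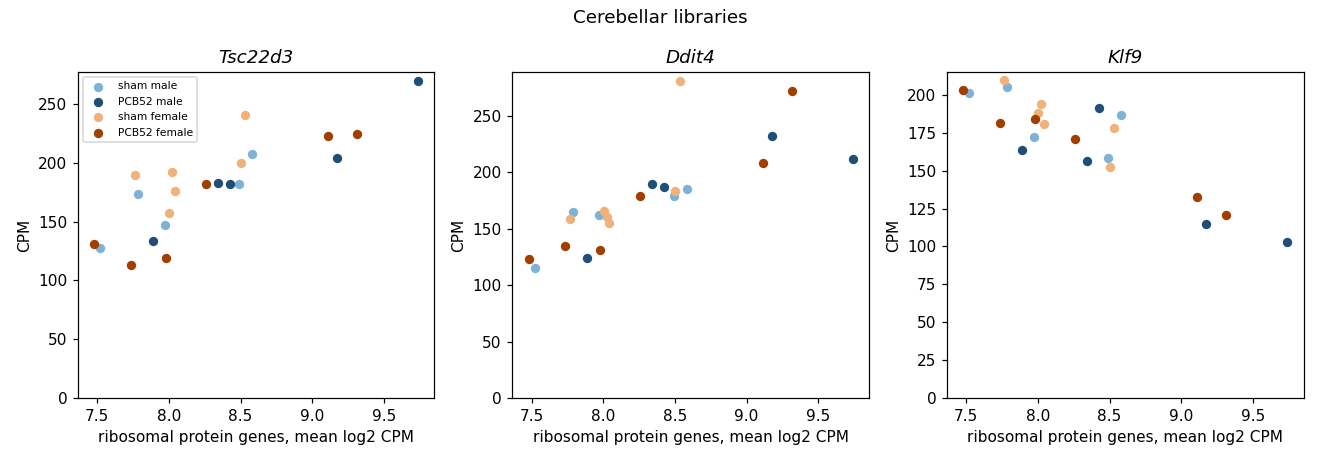
CPM of Tsc22d3, Ddit4 and Klf9 against the mean log2 CPM of 74 ribosomal protein genes in 22 cerebellar libraries, coloured by group. In the 4 libraries above 9.0 on the horizontal axis Klf9 is 103 to 133 CPM, below all 18 others. The share of all genes separated in this way was not computed.

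PCB52 against sham was compared in each sex and region. The sham males also entered the sex comparison known when the genes were proposed, so the male values are not independent of the choice. In striatum of males the 9 genes stood on both sides of 0, with 5 higher, 4 lower and a median log2 fold change of 0.07 (0.00 over all genes). Fkbp5 was 93.7, 111, 112 and 124 CPM in sham males, and 112, 122 and 140 (lowest, median, highest) in 6 PCB52 males, a log2 fold change of 0.16 ± 0.11. edgeR called 0 of the 9 and 0% of 12142 genes; without adjustment, 0 of the 9 and 109 genes had p under 0.05. The alternative tools DESeq2 and limma called 0 of the 9. Intervals are wide at this size: the standard errors of the 9 genes ran from 0.11 to 0.45.

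In cerebellum of males 4 genes stood higher and 5 lower (median -0.02, 0.01 over all genes), and edgeR called 0 of 9 and 0% of 11690 genes, as DESeq2 and limma called 0 of 9. At an unadjusted p under 0.05 were 1673 genes, Angptl4 and Klf9 among them. Angptl4 was 6.07, 6.74, 8.24, 9.85 and 11.03 CPM in sham and 7.83, 11.9, 12.4, 13.4 and 13.4 in PCB52 males. Its groups overlapped by PCB52 male 13, and the log2 fold change was 0.48 ± 0.17 (edgeR adjusted p = 0.313). Klf9 was 158, 172, 187, 201 and 205 CPM in sham and 103, 115, 156, 163 and 191 in PCB52 males. The lowest pair were males 23 and 15 of high ribosomal protein transcripts, and the log2 fold change of -0.35 ± 0.17 (edgeR adjusted p = 0.313) was -0.13 without the libraries of high ribosomal protein transcripts. Sham males 9 and 11 of this comparison held transcripts of both sexes. Over 33 alternative fits, which include leaving such libraries out, Angptl4 ran from 0.33 to 0.73 and Klf9 from -0.47 to -0.11.

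In cerebellum of females all 9 genes had a negative value (median -0.25, 0.02 over all genes, of which 45% were negative). The sham females of this comparison also entered the sex comparison known when the genes were proposed, so the direction is not independent of the choice. Sgk1 was 64.7, 72.9 and 151 CPM (lowest, median, highest) in sham and 38.6, 51.8 and 97.5 in PCB52 females. Of 6 PCB52 values 5 lay below all sham values, the exception being animal 20. The log2 fold change was -0.58 ± 0.22.

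Pdk4 was 2.79, 4.21 and 10.7 CPM in sham and 1.81, 2.79 and 3.88 in PCB52 females, with a log2 fold change of -0.86 ± 0.30. Cdkn1a was 3.57, 5.92 and 9.90 against 1.43, 2.41 and 9.13 CPM, with -0.94 ± 0.42. Zbtb16 was 1.59, 2.85 and 9.67 against 0.732, 1.08 and 3.61 CPM, with -1.04 ± 0.49. edgeR called 0 of 9 and 0% of 11690 genes (adjusted p = 1.00 for each of these), as did DESeq2 and limma for the 9. These 4 members and 369 genes in all had an unadjusted p under 0.05. Single libraries moved these values by more than 1.5 times: Zbtb16 was -0.49 without sham female 4, Pdk4 -0.52 and Sgk1 -0.34 without sham female 12, and Cdkn1a -1.52 without PCB52 female 20. Without the libraries of high ribosomal protein transcripts Cdkn1a was -1.54 and Klf9 0.00, against -0.94 and -0.17 with them.

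Of the 25 further targets tested in cerebellum of females, 21 had a negative value (median -0.19), 0 were called and 4 had an unadjusted p under 0.05. Over all 11690 genes 45% were negative, 0 were called and 369 had an unadjusted p under 0.05. The list was chosen with earlier results known. In cerebellum 22 of the 25 stood higher in sham females than in sham males, so the direction is not independent of the choice. Errfi1 had a log2 fold change of -0.27 ± 0.11, Bcl6 -0.52 ± 0.24 and Hif3a, a regulator of the hypoxia response, -0.98 ± 0.46. Among the 17 receptor and chaperone genes 10 were negative (median -0.02), 0 were called and 0 had an unadjusted p under 0.05. Nr3c1 stood at -0.09 ± 0.24 and Hsd11b1 at 0.04 ± 0.20. The 3 of lowest p were Hsp90aa1 at -0.17 ± 0.08, Abcb1b, an efflux pump gene, at -0.50 ± 0.32, and the co-chaperone gene Bag1 at 0.25 ± 0.24.

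In striatum of females, the contrast known when the genes were proposed, 8 of 9 values were negative (median -0.41, 0.00 over all genes). edgeR called 0 of the 9 and 0% of 12142 genes, and nothing is read from it. Tsc22d3 was 110, 129 and 171 CPM in sham and 80.0, 95.9 and 116 in PCB52 females, a log2 fold change of -0.51 ± 0.12. Sgk1 was 143, 164 and 244 against 69.7, 118 and 212 CPM (-0.45 ± 0.24), and Pdk4 4.39, 6.81 and 13.7 against 2.94, 4.04 and 9.30 (-0.64 ± 0.35). Zbtb16 was the exception at 0.09 ± 0.38.

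Striatum of PCB52 female 20 carried the highest Sgk1, Klf9, Pdk4, Zbtb16 and Cdkn1a of the PCB52 females. Without that library the values were -0.66 for Sgk1, -0.96 for Pdk4, -0.96 for Cdkn1a (-0.34 ± 0.36 with it) and -0.10 for Zbtb16. Without sham female 4, Pdk4 was -0.38 and Cdkn1a -0.09. Cdkn1a was 27.8 CPM in striatum of PCB52 female 20, against 4.96 to 9.44 in the other 5 PCB52 females.

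**Figure D4:**
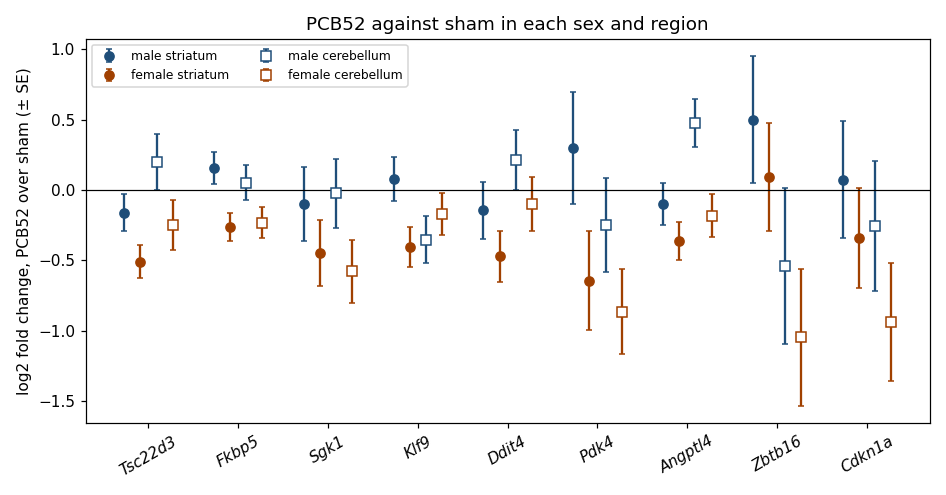
Log2 fold change of PCB52 over sham with its standard error for each gene, in males (blue) and females (brown), striatum (filled circles) and cerebellum (open squares). The female cerebellar values are all below 0 (median -0.25), and the male values lie on both sides (median 0.07 in striatum and -0.02 in cerebellum). The genes were proposed with the sham sex difference known, so this order of the sexes is not independent of the choice.

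Between the sexes in PCB52 animals, females had the higher value in 3 of 9 genes in striatum (median log2 difference -0.11) and in 1 of 9 in cerebellum (median -0.12). edgeR called 0 of 9 in both, against 0.0412% of genes in striatum and 0% in cerebellum, and 0 of 9 had an unadjusted p under 0.05 in either. DESeq2 and limma also called 0. The striatal PCB52 females entered the known exposure contrast, so the striatal sex difference is not independent of the choice of genes. In sham animals, a known contrast, females were higher in 8 of 9 in both regions (medians 0.31 and 0.37), where edgeR called 0 of 9 against 0.0329% and 0% of genes. The libraries with transcripts of both sexes are all sham libraries and enter this contrast. In striatum of females the 9 genes averaged 5.57 ± 0.28 log2 CPM without and 5.19 ± 0.33 with PCB52 (SD, n = 6 each), and in males 5.25 ± 0.10 (n = 4) and 5.27 ± 0.27 (n = 6). In cerebellum these averages were 4.93 ± 0.27 and 4.47 ± 0.24 in females (SD, n = 6 each) and 4.65 ± 0.18 and 4.60 ± 0.16 in males (SD, n = 5 each). By their means, sham females were the highest group in both regions.

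The difference of the PCB52 effects between the sexes in cerebellum contains the known sham sex contrast and is a description: it was negative for 8 of 9 genes (median -0.51), with 0 called by edgeR and 0% of genes. In striatum, likewise a description, it was negative for 9 of 9 (median -0.41), with 0 called by edgeR and 0% of genes. The difference of the PCB52 effects between the regions in males gave 0 calls among 9 (0% of 12446 genes), 0 with DESeq2 and limma, and 1 unadjusted p under 0.05, for Angptl4. In females, as a description, striatum minus cerebellum was negative for 5 of 9 genes (median -0.05), with 0 called and 0% of genes.

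**Figure D5:**
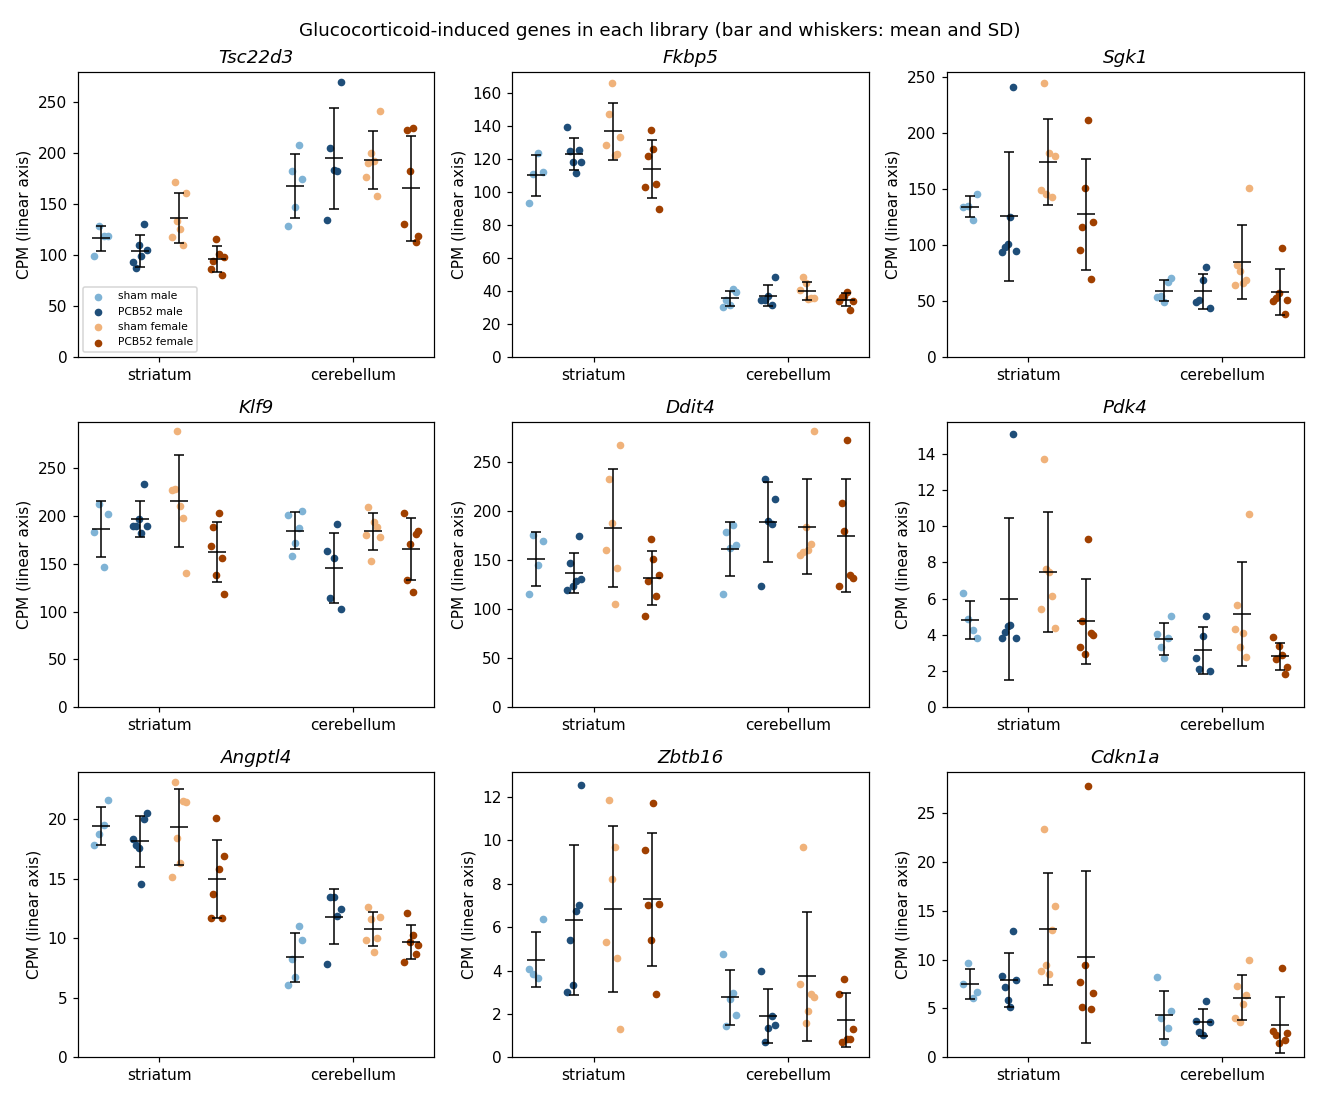
CPM of each gene in every library, by region and group, with the group mean and SD on a linear axis from 0. Striatal Fkbp5 lies above all cerebellar values, Tsc22d3 is lower in striatum, and single high points such as PCB52 male 21 for Sgk1 (241 CPM in striatum) stand above their groups.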

How the data were processed

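RNA of striatum and cerebellum punches was sequenced. Per the labels' protocols, libraries were made after poly(A) selection or ribosomal RNA depletion, and the submitters' processing notes name FastQC, HISAT2 and build rn6; the sources used here do not give the counter, annotation or strandedness, so overlapping and antisense genes are not told apart. The authors deposited whole-number counts per gene, not normalized, 1 table per region. Of 47 labelled samples, 44 were analysed; not analysed here were sham males 5 (either region) and 7 (striatum). Of 15319 gene identifiers, 15230 (99.4%) matched a symbol in a GRCr8 table, used for names. Counts of all 101 library pairs within groups differed beyond sampling noise (chi-square at least 3.49 times its degrees of freedom).

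From the counts, edgeR 4.0.16 (R 4.3.3; TMM, filterByExpr, robust quasi-likelihood F-test) was fitted per region with 4 group means and jointly with 8, with Benjamini-Hochberg adjustment over all genes tested (threshold 0.05). It was tested on simulated data. Same-numbered libraries come from 1 animal, by the shared number in the titles, so the animal was an alternative block. Correlations used log2 CPM (prior count 2). Alternatives were RLE size factors, no filter, fewer groups per fit, DESeq2 1.42.0, limma 3.58.1, prior count 0.5 and libraries left out; the ribosomal, choroid plexus, depth and unscaled alternatives were chosen after seeing the data. Counting depth limits Zbtb16, Pdk4 and Cdkn1a most.

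The members and lists were chosen with earlier results of these data known. All 9 members were named. From each other list, the receptors, the corticosterone enzymes and the 3 genes of lowest p in the sham region and female cerebellum comparisons were named, and per region the 5 genes most correlated with the members' mean. Bcl6 between regions was named after its values were seen.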

Additional observations from a re-analysis of the deposited data

Results flagged for a closer look

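In 80 groups of 4 to 6 libraries (9 genes and their mean in 8 groups), 15 had a highest or lowest library separated from the rest by more than Dixon's critical value. That value assumes a normal spread, whereas the genes were examined as CPM on a linear scale. All flags except Angptl4 in PCB52 male 13 were highest libraries. The groups share libraries, so no chance rate is set beside the number flagged. Values are CPM. PCB52 male 21 was highest in striatum for Klf9 (234), Pdk4 (15.1; the other 5 at 3.82 to 4.54) and Sgk1 (241), and for the mean of the 9 genes (5.79 log2 CPM, others 5.08 to 5.32). PCB52 female 20 was highest in striatum for Cdkn1a (27.8) and Pdk4 (9.30), and in cerebellum for Cdkn1a (9.13) and Sgk1 (97.5). Sham female 12 was highest in cerebellum for Ddit4 (281, others 155 to 183), Pdk4 (10.7) and Sgk1 (151, others 64.7 to 82.3). Sham female 4 was highest for Pdk4 in striatum (13.7) and for Zbtb16 in cerebellum (9.67). The other 2 were Zbtb16 in striatum of sham male 11 (6.39) and Angptl4 in cerebellum of PCB52 male 13, the lowest of its group (7.83).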

How the results depend on the processing

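Only striatum against cerebellum, in sham and in PCB52 animals, had a reported count above 0, so most agreement here is of 0 calls with 0. Counts of called genes stayed within 1.5 times the main count in 574 comparisons of an alternative with the reported count, and moved in 2. Those were DESeq2 in striatum of females, which called 1 gene (Tsc22d3; nothing is read from this call, since the contrast was known when the genes were proposed), and the correlation between regions without removal of group means, which called 1 (Sgk1, r = 0.78, adjusted p = 0.0286). The cause was not tested. With the animal as a replicate block, in the 21 animals with both regions, the pairing gave 6 calls in sham and 8 in PCB52 animals between regions, as without it, and changed no other call. Between regions, DESeq2 called 6 and 9 genes and limma 8 and 8; without the libraries holding transcripts of both sexes the counts were 4 and 8. Ddit4 in PCB52 animals lost its call with the ribosomal protein mean as a covariate (log2 difference -0.13, adjusted p = 0.262, edgeR). No called value changed sign. Low counts of Zbtb16, Pdk4 and Cdkn1a limit what could be detected for them, and the groups of 4 to 6 animals limit all exposure comparisons.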
